A study of Mus musculus with 2 samples.

Results

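Transcripts of 10 cytokine and cytokine receptor genes of dendritic cells (DCs) were followed through skin-draining lymph nodes. They are *Il12b*, *Il27*, *Ebi3*, *Il15*, *Il15ra*, *Il1b*, *Il18*, *Il6*, *Tnf* and *Il10*, chosen by name, and all 10 were among the 18049 genes listed in both expression tables. Live B220- cells with CD11c and high MHCII were sorted from mice of the B6 strain and analysed by CITE-seq, which reads the mRNA of a cell together with antibody tags on its surface. One library came from naive mice and 1 from mice given 5 µg of ovalbumin with 50 µg of the protease papain in both rear footpads 1 day earlier. The mice carried no transgene or deletion. The naive nodes were pooled per the methods, and pooling of the papain nodes is not stated. Per the study's methods the papain nodes were popliteal and the naive nodes pooled skin-draining ones, whereas the labels name skin-draining tissue for both libraries and popliteal nodes in the protocol of both. The node site of the naive library is thus not settled, and immunization and node site cannot be told apart in any ratio of papain to naive. The authors' antibody class was used for each cell: Langerhans cells (LCs), which come from the epidermis, type 1 conventional DCs (cDC1s), and type 2 conventional DCs (cDC2s) with high, intermediate or low surface CD301b (CD301bhi, CD301bint and CD301blo).

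Each of these genes is known to serve a step in the exchange between DCs and lymphocytes. *Il12b* encodes p40, the subunit that IL-12 and IL-23 share, *Ebi3* and *Il27* encode the subunits of IL-27, and these dimers steer T helper differentiation. IL-15 is carried to NK cells and CD8 T cells on the receptor chain encoded by *Il15ra*. *Il1b* and *Il18* encode precursors that caspase-1 cleaves, *Il6* and *Tnf* encode cytokines of the acute inflammatory response, and IL-10 dampens DC activation.

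Of the cells, 3042 naive and 7306 papain cells had a class, with 707 and 2893 CD301bhi, 659 and 1827 CD301bint and 658 and 1470 CD301blo cDC2s, 578 and 235 cDC1s, and 440 and 881 LCs. Levels are given as CPM, the unique molecular identifiers (UMIs) of a gene per 1000000 UMIs of the group, and the share of cells is that with 1 UMI or more. With 1 library per condition no value has a replicate and no test was made. The intervals in brackets are 95% intervals of counting error, exact Poisson for CPM and exact Clopper-Pearson for shares, and leave out the spread between cells, mice and libraries. Cells held 2682 to 57378 UMIs, the median depth of a class lay between 10768 (naive LCs) and 18290 (papain LCs), and 2 barcodes occurred in both libraries. The class labels were matched by their markers in part: the LC genes *Epcam* and *Cd207* were highest in LCs and the cDC1 genes *Xcr1* and *Clec9a* in cDC1s, whereas *Mgl2*, which encodes CD301b, was at 1.21 CPM or less in every papain class. Doublets were not removed.

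A pair of cell sets touches several results below. The authors label cells with a UMI of the T cell genes *Cd3e* or *Trac*, and 182 of the naive cells with a class (5.98%) and 322 of the papain cells (4.41%) carry such a label. The spread was uneven, with 78 of 578 cDC1s and 14 to 38 cells of each other class in the naive library, and 11 of 235 cDC1s in the papain library. In the naive library, the authors' mRNA cluster 1.5 held 246 of the 2024 cDC2s. Its cells had 4016 CPM over the 5 listed monocyte and macrophage markers, of which 3763 CPM were *Lyz2*, and 1389 CPM of the migration receptor gene *Ccr7*. In the other naive cDC2 clusters the same marker sum was 14.9 to 184 CPM and *Ccr7* 2754 to 5029 CPM, and in the 9 papain clusters the marker sum did not exceed 80.2 CPM. Other DC genes did not follow *Ccr7* as a set. In cluster 1.5 *H2-Aa* was at 10180 CPM, above every other naive cDC2 cluster (at most 3493 CPM, in cluster 1.6). *Flt3* lay within the range of those clusters, and *Zbtb46* was below all of them, at 58.3 CPM. Whether the cells of cluster 1.5 are DCs, monocytes or macrophages was not tested. Cluster 1.5 was singled out after its values were seen.

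Promoter windows from RefSeq (build GRCm38.p6), 250 bases before to 50 bases after an annotated start, were found for 7 of the 10 genes, and not for *Il15*, *Il27* or *Il10*. Shown are 3 genes that had lower levels in papain cDC2s (*Il12b* at chr11:44399813-44400112 on the plus strand, *Il6* at chr5:30012864-30013163 on the plus strand and *Tnf* at chr17:35201958-35202257 on the minus strand) and 2 that had higher levels (*Ebi3* at chr17:55952373-55952672 and the second of 2 windows of *Il15ra* at chr2:11705462-11705761, both on the plus strand). Capitals mark matches on either strand to GGGNNNNNCC, written after NF-kB sites, to GAAANNGAA, written after interferon response elements, and to TATAAA. Overlapping matches are merged.
Il12b: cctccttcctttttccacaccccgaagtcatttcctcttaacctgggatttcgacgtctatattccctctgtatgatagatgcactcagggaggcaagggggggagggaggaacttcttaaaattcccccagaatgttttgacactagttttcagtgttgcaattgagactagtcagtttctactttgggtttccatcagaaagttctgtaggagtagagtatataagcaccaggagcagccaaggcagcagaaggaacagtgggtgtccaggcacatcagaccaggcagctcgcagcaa
Il6: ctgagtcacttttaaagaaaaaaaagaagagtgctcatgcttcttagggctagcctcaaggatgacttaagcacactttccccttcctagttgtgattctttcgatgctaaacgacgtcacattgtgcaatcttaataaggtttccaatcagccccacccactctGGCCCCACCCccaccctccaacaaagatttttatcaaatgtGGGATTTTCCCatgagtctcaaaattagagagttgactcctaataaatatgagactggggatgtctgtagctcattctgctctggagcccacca
Tnf: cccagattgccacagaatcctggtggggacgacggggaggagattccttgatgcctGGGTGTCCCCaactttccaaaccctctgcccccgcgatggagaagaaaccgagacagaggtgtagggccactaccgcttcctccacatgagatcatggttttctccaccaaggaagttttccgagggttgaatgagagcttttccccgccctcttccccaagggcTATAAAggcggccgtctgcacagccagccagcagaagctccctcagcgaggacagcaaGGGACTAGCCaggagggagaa
Ebi3: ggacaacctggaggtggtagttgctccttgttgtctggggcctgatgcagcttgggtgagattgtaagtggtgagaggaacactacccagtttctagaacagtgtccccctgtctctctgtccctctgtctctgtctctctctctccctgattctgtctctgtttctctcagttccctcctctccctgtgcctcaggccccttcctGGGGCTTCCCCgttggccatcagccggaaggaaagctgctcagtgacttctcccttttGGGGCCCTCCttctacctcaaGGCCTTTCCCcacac
Il15ra: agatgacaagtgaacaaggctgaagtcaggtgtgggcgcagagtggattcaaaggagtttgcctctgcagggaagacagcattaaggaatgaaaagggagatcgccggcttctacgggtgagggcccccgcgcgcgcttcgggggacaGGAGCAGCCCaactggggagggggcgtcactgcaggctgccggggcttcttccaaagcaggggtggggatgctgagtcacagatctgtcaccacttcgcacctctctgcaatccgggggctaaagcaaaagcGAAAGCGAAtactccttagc

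The letters GGGNNNNNCC were found in 50.8% of all 32851 promoter windows of this length, GAAANNGAA in 8.56% and TATAAA in 13.6%. *Il6*, *Tnf*, *Ebi3* and *Il15ra* had at least 1 match to the first of them, which is a description and no measured site, while the *Il12b* window held none of these letters. Only *Il15ra* among the windows printed had a match to the second, from 31 to 39 bases after the start, and only *Tnf* to the third.

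*Il12b*, the gene of p40, was highest in cDC1s in both libraries, and its level in cDC2s and LCs was lower in papain cells than in naive cells by more than 2-fold. In the naive library the level was 158 CPM (151 to 166) in CD301bhi, 108 (102 to 115) in CD301bint and 110 (103 to 117) in CD301blo cDC2s, 330 (318 to 341) in cDC1s and 127 (118 to 137) in LCs. In the papain library it was 39 CPM (37.3 to 40.8), 49.6 (47.1 to 52.2), 44.2 (41.2 to 47.4), 279 (261 to 298) and 48.6 (45.5 to 51.9) in the same order. No interval of a naive cDC2 or LC group overlapped that of the same papain group. The log2 ratio of papain to naive was -2.02 (-2.11 to -1.93) in CD301bhi, -1.13 (-1.24 to -1.01) in CD301bint and -1.31 in CD301blo cDC2s, -1.39 in LCs and -0.24 in cDC1s. CD301bhi cDC2s stood second to cDC1s in the naive library and last in the papain library, where their interval lay just below that of CD301blo cells. Without cells labelled for *Cd3e* or *Trac* these papain intervals overlapped, at 40.3 (38.5 to 42.2) and 43.5 CPM (40.4 to 46.7). Without the top cell of each class the levels were 37.2 and 41 CPM. The share of cells had the other order, 12.6% against 11.8%, with overlapping intervals. The cDC1 level was 2.59 times that of the other classes summed in naive cells and 6.34 times in papain cells.

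The share of cells with *Il12b* was likewise highest in cDC1s, but LCs came second in both libraries. In naive cells it was 25.3% of CD301bhi, 20% of CD301bint and 18.1% of CD301blo cDC2s, 52.1% of cDC1s and 29.5% of LCs. In papain cells it was 12.6%, 14.5%, 11.8%, 39.1% and 19.3%. When each cell was thinned to 8392 UMIs, which left out 378 naive and 657 papain cells, cDC1s kept the highest share, with 46.2% in naive and 35.5% in papain cells, and CD301bhi cDC2s had 22% and 9.54%. In droplets that had T cell transcripts but lacked antibody data, where the gene should be absent, the share was 5.49% of 237 naive and 1.24% of 241 papain droplets, at median depths of 7626 and 6980 UMIs, lower than in any class. Some of these droplets also held DC transcripts, *H2-Aa* in 30% of naive and 14.5% of papain ones and *Flt3* in 8.86% and 3.32%. The part of doublets with DCs in this background was not tested. The level in these droplets was 58.2 CPM (48.8 to 68.8) in naive and 4.81 CPM (2.2 to 9.13) in papain ones, and 38.1 and 2.19 CPM without the droplet with most UMIs. It was below every class of the same library, but lower in the papain library like the cDC2 and LC levels, and the part of free RNA in the ratios was not tested.

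*Ebi3*, a subunit of IL-27, was higher in papain cells than in naive cells of every class but cDC1s. The naive levels were 55.9 CPM (51.6 to 60.4) in CD301bhi, 53.2 (48.9 to 57.9) in CD301bint and 44.5 (40.3 to 49.1) in CD301blo cDC2s, 94.1 (88 to 100) in cDC1s and 25.2 (21.1 to 29.9) in LCs. The papain levels were 84.4 CPM (81.9 to 87), 75.7 (72.6 to 78.9), 64.5 (60.8 to 68.3), 54.7 (46.7 to 63.6) and 37.5 (34.7 to 40.4). The log2 ratios were 0.60, 0.51 and 0.53 in the 3 cDC2 classes and 0.57 in LCs, against -0.78 in cDC1s, all within 2-fold. The highest class for *Ebi3* was cDC1s in the naive library and CD301bhi cDC2s in the papain library. The share of cells with *Ebi3* was 36.4% of naive and 50% of papain CD301bhi cDC2s, and 52.6% and 35.7% of cDC1s, against 3.38% and 2.07% of the T cell droplets.

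*Il27*, the other subunit, had its highest level in cDC1s of both libraries, although most papain cells with a UMI were cDC2s (69 of 106, against 22 cDC1s). Its level was 10.6 CPM (8.66 to 12.9) in naive and 14 (10.1 to 18.9) in papain cDC1s, above every other class by more than the intervals. All other groups were at 3.76 CPM or below, with naive LCs the highest of them. Of naive cDC1s 8.48% and of papain cDC1s 9.36% held a UMI, against 0.152 to 0.91% of naive and 0.884 to 1.26% of papain cDC2s. In the T cell droplets 0 of 237 naive ones held *Il27*, which allows a share of up to 1.27%, and 0.415% of the papain ones, so that the cDC2 shares were not apart from background at this depth and no fold over the other classes is given.

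*Il15* and *Il15ra*, the cytokine and its presenting receptor chain, were highest in cDC1s and were detected in most cells of every class. The *Il15* level in naive cells was 103 CPM (97.4 to 109) in CD301bhi, 92.4 (86.6 to 98.5) in CD301bint and 76.9 (71.4 to 82.8) in CD301blo cDC2s, 178 (169 to 186) in cDC1s and 134 (124 to 144) in LCs. In papain cells it was 163 CPM (160 to 167), 153 (148 to 157), 124 (119 to 129), 197 (182 to 214) and 129 (124 to 134). The papain cDC2s lay above the naive cDC2s in each class, by 0.66, 0.72 and 0.69 on the log2 scale, while the intervals of both libraries overlapped in cDC1s and in LCs.

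For *Il15ra* the naive levels were 110 CPM (104 to 116), 131 (124 to 138) and 119 (112 to 126) in CD301bhi, CD301bint and CD301blo cDC2s, 230 (221 to 240) in cDC1s and 131 (122 to 141) in LCs. The papain levels were 188 CPM (184 to 192), 186 (181 to 191), 178 (172 to 184), 274 (256 to 293) and 128 (123 to 133). The log2 ratios in cDC2s were 0.78, 0.51 and 0.58, those in cDC1s and LCs 0.25 and -0.03. Leaving out naive cluster 1.5, where *Il15* was at 18.2 and *Il15ra* at 23.1 CPM, lowered the ratios of CD301blo cDC2s to 0.30 for *Il15* and 0.19 for *Il15ra*, and those of CD301bhi cDC2s to 0.57 and 0.69. Both genes were detected widely: *Il15* in 50.9% (naive CD301blo cDC2s) to 87.2% (papain CD301bhi cDC2s) of cells, and *Il15ra* in 61.1 to 97% of cells. The T cell droplets held *Il15* in 11.4% (naive) and 2.9% (papain) of cases, at 40.5 and 11.2 CPM, and *Il15ra* at 39.6 and 26.7 CPM.

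*Il1b*, the precursor of IL-1β, was highest in cDC2s, and its lower level in papain CD301bint and CD301blo cDC2s was not seen once naive cluster 1.5 was left out. Naive levels were 789 CPM (773 to 806) in CD301bhi, 561 (547 to 576) in CD301bint and 645 (629 to 661) in CD301blo cDC2s, 61 (56.1 to 66.2) in cDC1s and 173 (162 to 185) in LCs. Papain levels were 454 CPM (448 to 460), 311 (304 to 317), 341 (333 to 350), 82.7 (72.8 to 93.5) and 234 (227 to 241). The log2 ratios were -0.80, -0.85 and -0.92 in the 3 cDC2 classes, and 0.44 in cDC1s and 0.43 in LCs. In the naive library, cDC1s were 9.8-fold and LCs 3.05-fold below the other classes, and in the papain library 4.42-fold and 1.63-fold. Without naive cluster 1.5 the naive log2 ratios to the other classes were -2.57 in cDC1s, in place of -3.29, and -0.84 in LCs, in place of -1.61, so that LCs were then within 2-fold. Without the deepest 5% of cells the naive cDC1 ratio was -4.00.

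Cluster 1.5 was 5.52% of the naive CD301bhi, 9.71% of the CD301bint and 21.7% of the CD301blo cDC2s, and held 32.3%, 54.2% and 71.5% of their *Il1b* UMIs. Inside it *Il1b* was at 3229, 2179 and 1675 CPM in these classes. Outside it the naive levels were 580 CPM (565 to 595), 299 (287 to 310) and 254 (242 to 266). Against these, the log2 ratio of papain to naive was -0.35 (-0.39 to -0.31) in CD301bhi, 0.06 (-0.01 to 0.12) in CD301bint and 0.43 (0.35 to 0.51) in CD301blo cDC2s, so that the direction turned in CD301blo cells and the interval included 0 in CD301bint cells. For all cDC2s together the levels were 400 CPM outside the cluster in naive and 390 CPM in papain cells.

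The cDC1 value of *Il1b* rested on few cells as well. The cell with most UMIs held 17.6% of the naive cDC1 UMIs, and without the deepest 5% of cells of each library the naive level was 36.5 CPM and the papain level 80 CPM, with a log2 ratio of 1.13. The T cell droplets were at 40.1 CPM (naive) and 50.2 CPM (papain), of which 1 naive droplet held 37 of 93 UMIs and 1 papain droplet 76 of 94. Without these droplets the values were 24.5 and 9.87 CPM.

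*Il18*, whose product is cleaved by the same protease, was within 2-fold between the libraries wherever it reached 10 CPM. Naive cDC2s were at 17.5 CPM (15.2 to 20.1), 20.6 (17.9 to 23.6) and 20.4 (17.6 to 23.5) from CD301bhi to CD301blo, cDC1s at 4.84 (3.55 to 6.46) and LCs at 10.7 (8.12 to 13.9). Papain groups were at 19 CPM (17.8 to 20.2), 16.6 (15.2 to 18.2), 11 (9.55 to 12.7), 1.95 (0.717 to 4.25) and 11.1 (9.59 to 12.7). The 3 naive cDC2 classes overlapped one another, whereas papain CD301blo cDC2s were below the other cDC2s and at a log2 ratio of -0.89 (-1.18 to -0.59) to naive ones. The cDC1 levels were below those of the other classes but not apart from the T cell droplets, whose naive level was 4.74 CPM (2.37 to 8.48) and whose papain level was 1.6 CPM (0.331 to 4.69), so that no fold is given for them. Their calls against the other classes are counted below with this limit.

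Of cells with an *Il6* UMI, 153 of 176 naive and 304 of 344 papain ones were cDC2s. Among all classed cells cDC2s were 2024 of 3042 and 6190 of 7306. *Il6* was carried by few cells, which in the papain library were cDC2s about as often as all cells were. In naive cells it was at 20.8 CPM (18.3 to 23.7) in CD301bhi, 12.5 (10.4 to 14.8) in CD301bint and 23.2 (20.2 to 26.5) in CD301blo cDC2s, 2.95 (1.96 to 4.26) in cDC1s and 3.01 (1.72 to 4.89) in LCs. In papain cells it was at 4.51 CPM (3.94 to 5.13), 6.4 (5.51 to 7.38), 10.9 (9.44 to 12.5), 6.18 (3.72 to 9.66) and 4.14 (3.26 to 5.18). The log2 ratio was -2.21 (-2.48 to -1.94) in CD301bhi, -0.96 in CD301bint and -1.09 in CD301blo cDC2s. CD301blo cDC2s were highest in both libraries, although their naive interval overlapped that of CD301bhi cells. One naive CD301bhi cell held 42 of the UMIs, 17.6% of its class, and without it the class was at 17.2 CPM. One papain cDC1 held 10 of 19 UMIs (52.6%), and without it papain cDC1s were at 2.95 CPM. The naive cDC1s went from 2.95 to 1.91 CPM without their own top cell. Shares were 7.07, 5.92 and 9.73% of naive and 4.42, 4.71 and 6.12% of papain cDC2s, and 0 of 237 and 0 of 241 T cell droplets held the gene, which allows 1.27 and 1.24%.

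*Tnf* was ordered by CD301b class in both libraries. Its naive levels were 87.6 CPM (82.2 to 93.2) in CD301bhi, 64.7 (59.9 to 69.8) in CD301bint and 40.3 (36.3 to 44.6) in CD301blo cDC2s, 23.8 (20.8 to 27.1) in cDC1s and 18.1 (14.6 to 22.1) in LCs. Its papain levels were 39.3 CPM (37.5 to 41), 30.4 (28.4 to 32.4), 19.7 (17.7 to 21.9), 25.1 (19.8 to 31.3) and 19 (17 to 21.1). The 3 cDC2 classes did not overlap in either library, and each papain class was below its naive counterpart, with log2 ratios of -1.16, -1.09 and -1.03. The cDC1 and LC levels of both libraries, and the level of papain CD301blo cDC2s, overlapped those of the T cell droplets. These droplets were at 22.4 CPM (16.7 to 29.4, naive) and 15.5 CPM (10.4 to 22.3, papain). Without the droplet with most UMIs they were at 19.2 and 9.92 CPM. Free RNA and transcripts of the T cells themselves were not told apart in these droplets, so their *Tnf* level is not a measured background. Ratios that use the overlapping class levels are kept in the counts below. *Tnf* had a UMI in 46.4% of CD301bhi cDC2s of the naive and 31.8% of the papain library, and in 11.4% and 4.15% of the T cell droplets.

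*Il10* was near the limit of detection in every group. All classed naive cells held 67 UMIs and all papain cells 22, and the levels lay between 0.188 and 3.39 CPM in naive classes and between 0 and 0.325 CPM in papain classes. One cell of cluster 1.5 held 28 of the 35 UMIs of naive CD301bint cDC2s. Papain CD301blo cDC2s held 0 UMIs in 1470 cells, which allows a level of up to 0.166 CPM. The shares of cells, 0 to 1.06%, were set against 0.422 and 0.415% in the T cell droplets, and no order of the classes was read from them.

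**Figure D1:**
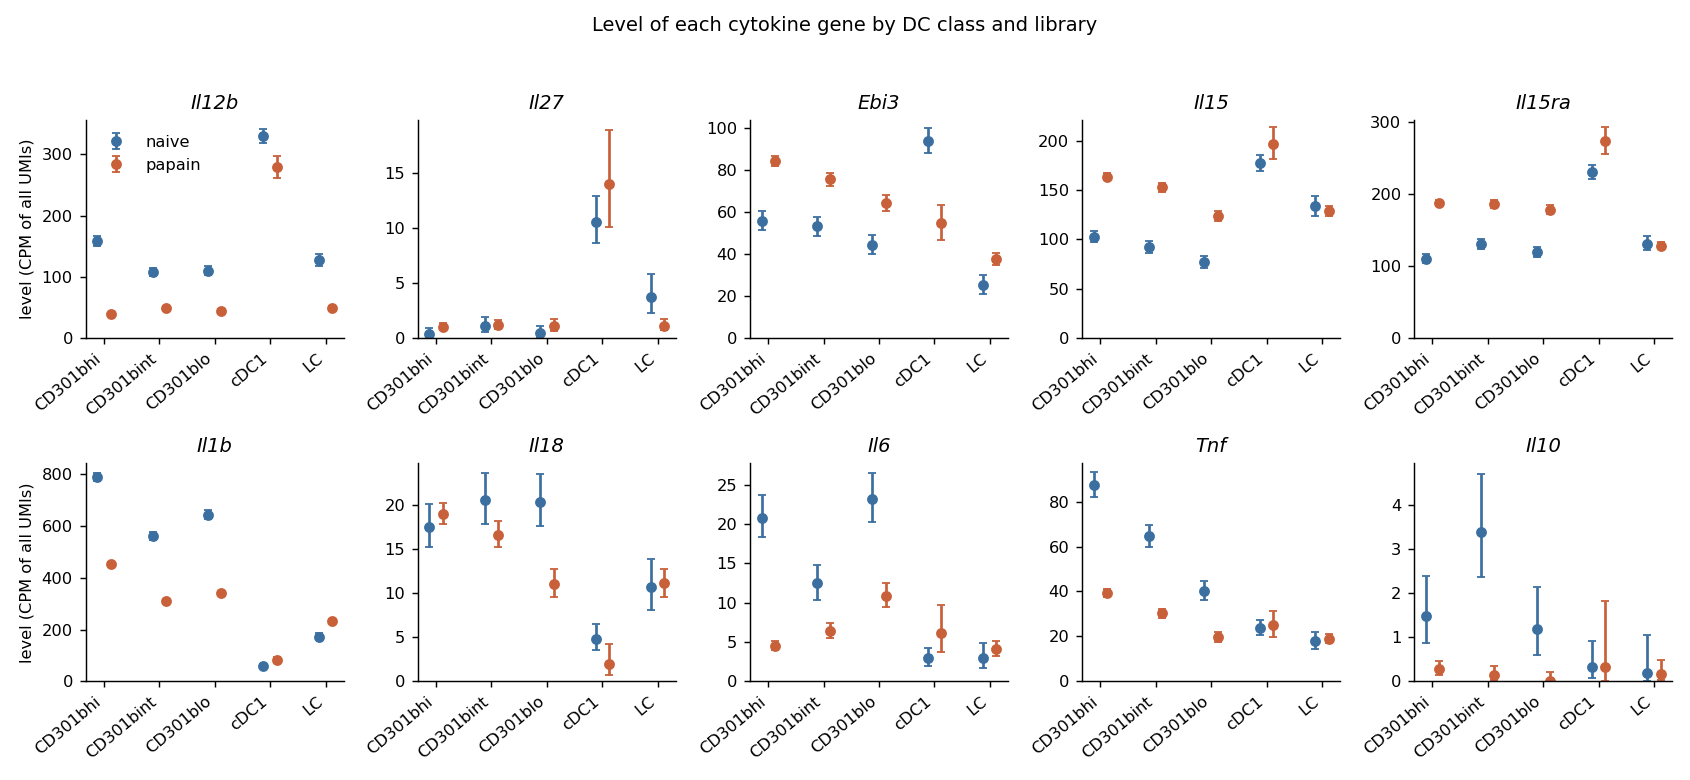
Level of the 10 genes in CPM (vertical axis, from 0, scaled per gene) by antibody class (horizontal axis) in the naive (blue) and papain (orange) library. Points are levels of summed UMIs and bars are 95% counting intervals. *Il12b* of cDC1s stood at 330 and 279 CPM, above every other class, and *Tnf* was lower in CD301blo than in CD301bhi cDC2s of both libraries.

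Over the 10 genes and 5 classes, 38 of the 50 ratios of papain to naive reached 10 CPM on the higher side. None of the 38 was at least 2-fold higher in papain cells, 9 were at least 2-fold lower and 29 were within 2-fold. Among these 29 are the *Tnf* ratios of cDC1s and LCs, whose levels were not apart from the T cell droplets. In CD301bhi cDC2s the lower ones were *Il12b*, *Il6* and *Tnf* (3 of 8), where 3.78% of all 7226 genes with that level were 2-fold lower and 2.27% were 2-fold higher. In CD301bint cDC2s they were *Il12b* and *Tnf* (2 of 8, background 4.82% lower and 2.46% higher), and in CD301blo cDC2s *Il12b*, *Il6* and *Tnf* (3 of 8, background 6.46% lower and 2.73% higher). The papain *Tnf* level of CD301blo cDC2s was not apart from that of the T cell droplets. The *Tnf* call in CD301bint cDC2s was lost without the 1 cell of each group with most UMIs (-0.98), as was that in CD301blo cDC2s by less than the rounding, which left 7 lower ones. Averaged over cells, *Il12b* in CD301bint (-0.99) and *Tnf* in CD301bint (-0.99) and CD301blo cDC2s (-0.98) missed 2-fold. In LCs *Il12b* was the single one (1 of 7, background 2.72% lower and 4.35% higher), and in cDC1s there was none (0 of 7, background 5.48% lower and 2.56% higher). The median log2 ratio over the genes tested was -0.34, -0.58 and -0.90 in CD301bhi, CD301bint and CD301blo cDC2s, 0.15 in cDC1s and 0.04 in LCs, beside 0.09, 0.05, 0.01, 0.02 and 0.06 over all genes. Without naive cluster 1.5 the medians of the cDC2 classes were -0.08, -0.12 and -0.32, beside 0.10, 0.06 and 0.03 over all genes.

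**Figure D2:**
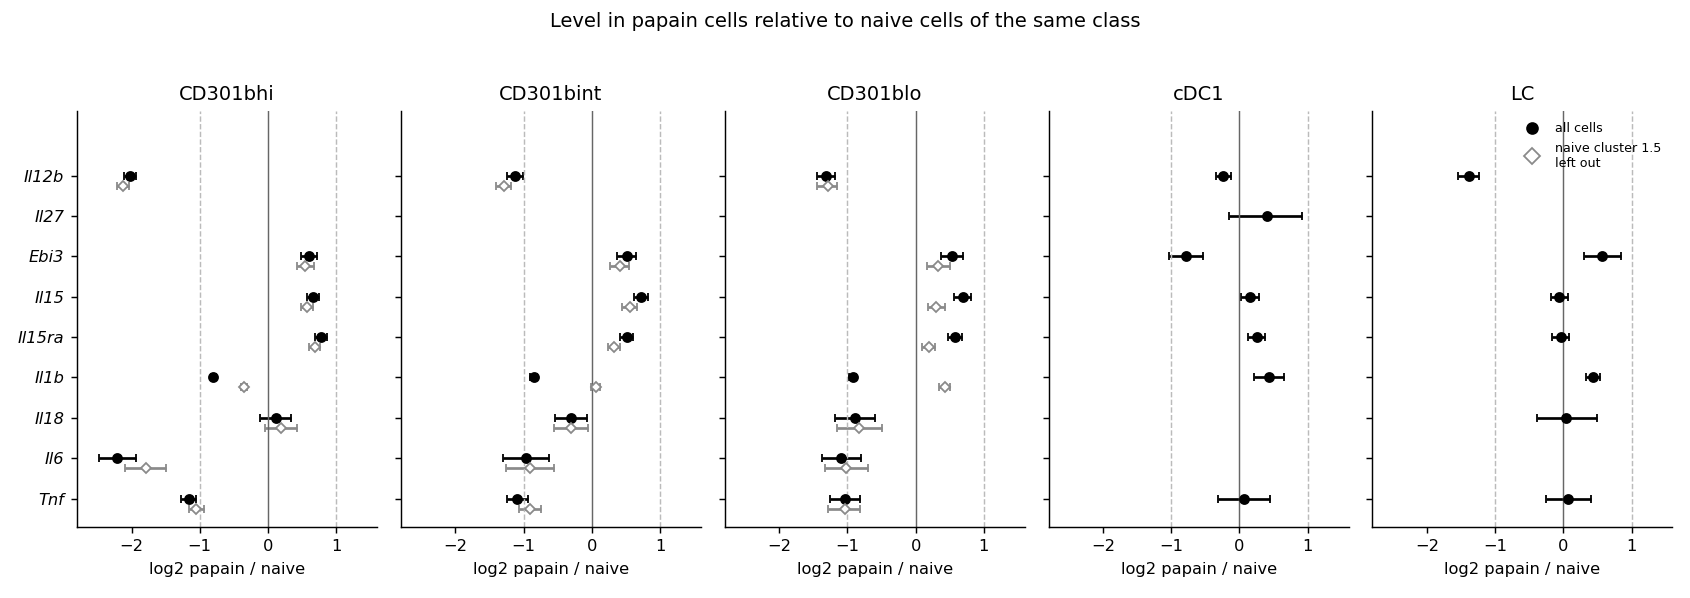
Log2 ratio of the papain to the naive level (horizontal axis) of each gene in the 5 classes, drawn where the higher side reached 10 CPM. Black circles are all cells, open diamonds the same ratio without naive cluster 1.5, bars 95% counting intervals, and dashed lines mark 2-fold. *Il12b* stayed below -1 in the 3 cDC2 classes with and without the cluster, while *Il1b* of CD301blo cDC2s moved from -0.92 to 0.43.

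Between classes, 5 of 41 tested ratios of a class to the other classes of its library were at least 2-fold higher and 8 at least 2-fold lower in naive cells. *Il1b* and *Tnf* were higher in CD301bhi cDC2s (2 of 8, where 0.650% of all genes were), and *Il6* in CD301blo cDC2s (1 of 8, background 2.57%). In cDC1s, *Il12b* and *Il27* were higher (2 of 9, background 4.42%) and *Il6*, *Il1b*, *Il18* and *Tnf* lower (4 of 9, background 6.57%). The cDC1 levels of *Il18* and *Tnf* were not apart from the T cell droplets. In LCs, *Il6*, *Il1b*, *Ebi3* and *Tnf* were lower (4 of 8, background 5.48%), of which *Il1b* was lost without cluster 1.5. The *Tnf* level of LCs was likewise not apart from the T cell droplets. Fewer ratios passed in papain cells, 3 higher and 3 lower of 37. *Il6* was higher in CD301blo cDC2s (1 of 8, background 0.991%), *Il12b* and *Il27* were higher in cDC1s (2 of 8, background 3.76%), *Il1b* and *Il18* lower in cDC1s (2 of 8, background 6.72%), and *Ebi3* lower in LCs (1 of 7, background 2.08%). Papain *Il18* of cDC1s, too, was not apart from the T cell droplets.

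Partner subunits, processing enzymes and antagonists of these cytokines were taken from a list of 9 genes, all listed. *Il12a*, the p35 partner of p40, was at 0.651 CPM or less in every class, and *Il23a*, the p19 partner of IL-23, at 4.01 CPM or less. *Nlrp3*, the sensor of the inflammasome that activates caspase-1, was at 14, 14.8 and 17.2 CPM in naive and at 2.45, 1.63 and 1.27 CPM in papain cDC2s from CD301bhi to CD301blo. In these classes the summed monocyte and macrophage markers were 585, 730 and 713 CPM in naive and 28.6, 21.3 and 104 CPM in papain cells, and *Nlrp3* was at 59.5 to 121 CPM inside cluster 1.5. Outside it naive *Nlrp3* was at 4.85, 4.05 and 1.2 CPM, under the minimum of 10 CPM. *Il18bp*, the decoy receptor of IL-18, was at 5.69, 6.19 and 5.96 CPM in naive and at 21.7, 25 and 27.6 CPM in papain cDC2s, with log2 ratios of 1.93, 2.02 and 2.21, and of 1.90, 1.87 and 1.94 without cluster 1.5. *Il1rn*, the IL-1 receptor antagonist, was at 10.3 CPM in naive and 24.4 CPM in papain LCs, and at 5.58 CPM or less in cDC1s of both libraries. *Casp1*, the protease itself, was within 2-fold in every class.

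Of 16 receptor genes, 7, 9, 10, 8 and 8 reached 10 CPM in CD301bhi, CD301bint and CD301blo cDC2s, cDC1s and LCs. None of these was 2-fold higher in papain cells, and 1, 4, 5, 2 and 1 were 2-fold lower, beside 3.78%, 4.82%, 6.46%, 5.48% and 2.72% of all genes. *Il6ra*, the ligand-binding chain for IL-6, was at 39.1, 39 and 40.2 CPM in naive and at 18.8, 15.4 and 14.2 CPM in papain cDC2s, and without cluster 1.5 its log2 ratios were within 2-fold (-0.68, -0.50 and -0.41). *Il1r2*, a decoy receptor for IL-1, was at 41.1 CPM in naive and 9.2 CPM in papain CD301blo cDC2s, but at 5.68 CPM in naive ones outside that cluster. In CD301bhi and CD301bint cDC2s it was at 5.8 and 4.84 CPM in naive cells outside the cluster and at 2.1 and 2.18 CPM in papain cells, log2 -1.47 (-1.94 to -0.99) and -1.15 (-1.73 to -0.56), all under 10 CPM. *Tnfrsf1a*, a receptor for TNF, was at 26.6 and 31.6 CPM in naive and 12.7 and 15.8 CPM in papain CD301bint and CD301blo cDC2s, and at 17.1 and 17.9 CPM in naive ones outside the cluster. *Il18r1*, a receptor chain for IL-18, was at 23.4 CPM in naive and 1.63 CPM in papain cDC1s, and *Il2rb*, a chain shared by the receptors of IL-2 and IL-15, at 24.8 and 0.976 CPM. Both were also lower in papain CD301blo cDC2s, and remained so without cluster 1.5, *Il18r1* at 21.4 against 4.1 CPM (log2 -2.38) and *Il2rb* at 31 against 0.332 CPM (-6.54), as did *Il18r1* in CD301bint cDC2s at 11.1 against 1.94 CPM (-2.52). Summed CPM of the 4 T cell markers were 146 (naive) and 20.5 (papain) in cDC1s and 43.7 and 12.2 in CD301blo cDC2s, those of the 3 NK cell markers 8.11 and 0 in cDC1s and 11.3 and 0.554 in CD301blo cDC2s, and their part in these receptor values was not tested.

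Of 16 other cytokine genes, 8 were listed. *Csf1*, a growth factor of macrophages, was at 42.6 CPM in naive and 89 CPM in papain CD301bhi cDC2s (log2 1.06, and 0.97 without cluster 1.5). *Tgfb1* was lower in papain CD301bint and CD301blo cDC2s (log2 -1.12 and -1.17) and higher in papain LCs (1.09), and without the cluster its cDC2 values were 0.25 and 0.01. *Il2* was at 3.37 CPM in naive and 10.1 CPM in papain cDC1s, just past the minimum of 10 CPM, and was not called in the other classes. The part of labelled cells and of single cells in this value was not examined. The paper reports *Il2* mRNA in all DC subsets. Of 7 regulators of cytokine transcription and mRNA decay, *Zfp36*, which encodes a protein that destabilises cytokine mRNA, was the only one past 2-fold between libraries, in CD301bint cDC2s (1570 CPM naive, 752 CPM papain). *Nfkbiz*, an NF-kB cofactor, was at 681 CPM in naive CD301bhi cDC2s and at 147 CPM in naive cDC1s, and *Irf8*, a transcription factor of cDC1s, at 566 CPM in naive and 830 CPM in papain cDC1s. Heat shock and immediate early genes, 12 in a list added after the data were seen, had median log2 ratios of -0.47, -0.51, -0.86, -0.49 and -0.47 from CD301bhi cDC2s to LCs, in the same direction as *Il12b*, *Il6* and *Tnf* in cDC2s. Of them 2, 3, 6, 2 and 1 were 2-fold lower, beside 3.78%, 4.82%, 6.46%, 5.48% and 2.72% of all genes, and 0 higher, *Fos* and *Atf3* in each cDC2 class among them, with *Fosb*, *Egr1*, *Hspa1a* and *Hspa1b* in fewer classes, and the part of this list in the cytokine ratios was not tested.

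Leaving out the cells labelled Cd3e+ or Trac+ moved few values. These cells held between 2.14% (*Il27*, naive) and 8.16% (*Il12b*, papain) of the UMIs of each gene, beside 5.98% and 4.41% of the cells. Of the 100 levels, 91 stayed within the counting interval of the value with all cells. The 9 others were *Il12b* in naive cDC1s (363 CPM), papain cDC1s (223 CPM) and papain LCs (45.4 CPM), *Il1b* in naive CD301bint (578 CPM) and CD301blo cDC2s (664 CPM), *Il15ra* (247 CPM), *Ebi3* (102 CPM) and *Tnf* (20.3 CPM) in naive cDC1s, and *Il10* in papain cDC1s, whose 1 UMI was lost. For papain cDC1s, 1 labelled cell held 207 *Il12b* UMIs, 24.2% of its class. Without labelled cells, the log2 ratio of *Il12b* in cDC1s was -0.70 in place of -0.24, and that of *Il6* in CD301bint cDC2s was -1.05 in place of -0.96, which adds it to the 2-fold lower ones (10 in place of 9). Between naive classes, *Il6* of CD301blo cDC2s then missed 2-fold at 0.94, *Il1b* of CD301bhi cDC2s missed it by less than the rounding, and *Il15ra* and *Ebi3* of cDC1s passed it at 1.03 and 1.08. Shares of cells stayed close: *Il12b* was in 55% of unlabelled naive and 39.3% of unlabelled papain cDC1s.

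**Figure D3:**
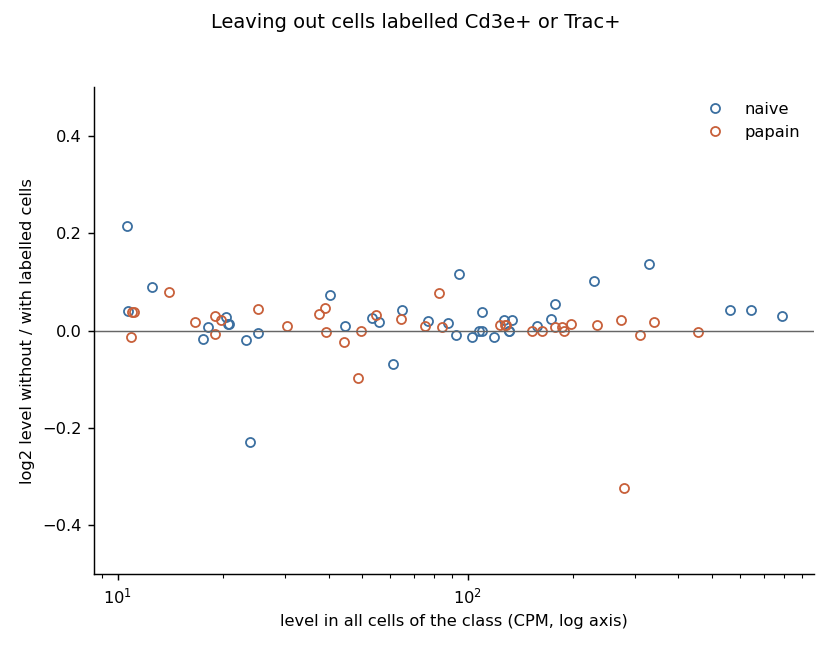
Log2 of the level without cells labelled Cd3e+ or Trac+ over the level with them (vertical axis), for each gene and class with at least 10 CPM, against the level in all cells (horizontal log axis), naive in blue and papain in orange. Most points lie near 0, and the lowest is *Il12b* of papain cDC1s, which went from 279 to 223 CPM.

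The genes differed in how evenly cells shared the transcripts. The 10% of cells with most *Il12b* UMIs held 67% of them in naive cDC1s and 78.3 to 92.4% in the other naive classes, and 79.5% and 89.9 to 96.6% in the papain library. For *Il15* the same share was 27 to 41.3%, and for *Il15ra* 25.8 to 38.5%, over all classes of both libraries. Cells with 10 or more *Il12b* UMIs were 8.49% of naive and 2.07% of papain CD301bhi cDC2s, and held 79% and 58% of the UMIs. Per cell with a UMI, these classes had a mean of 10.1 and 5.41 *Il12b* UMIs, so that both the share of cells and the number per cell were lower in the papain library. In cDC1s the mean was 10.4 and 9.32, where 1 labelled papain cell held 207 of 857 UMIs. Unlabelled cDC1s held 2910 UMIs in 275 naive cells and 646 UMIs in 88 papain cells. For *Il1b* the mean was 21.5 and 14.7 UMIs in CD301bhi cDC2s, and 28.9% and 23.7% of the cells held 10 or more. Cells with *Il18* held a median of 1 UMI.

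**Figure D4:**
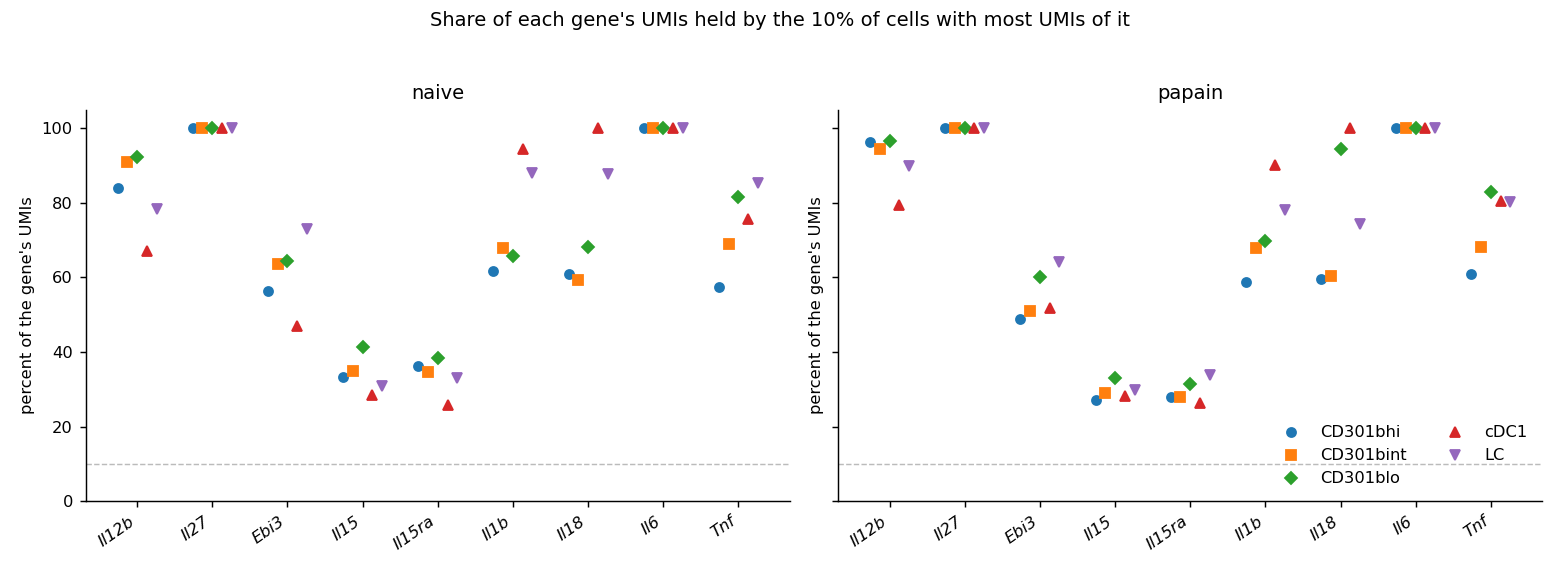
Percent of a gene's UMIs (vertical axis) held by the 10% of cells with most of them, by gene and class, in the naive (left) and papain (right) library; the dashed line marks an even spread. *Il12b*, *Il6* and *Il27* lie high and *Il15* and *Il15ra* low, at 25.8 to 41.3%. A gene found in fewer than 10% of cells reaches 100%.

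Pairs of genes in the same cell were compared among cells of 10000 to 20000 UMIs. In naive cDC1s, *Il27* was in 15.1% (10.2 to 21.2) of cells with *Ebi3* and in 2.34% (0.641 to 5.88) of cells without it, and in papain cDC1s in 15.5% (7.35 to 27.4) and 7.22% (2.95 to 14.3). Cells with *Il12b* held *Ebi3* more often in all 3 cDC2 classes of both libraries, for example in 63.7% (57 to 70) against 44.2% (41.9 to 46.6) of papain CD301bhi cells and in 47.1% (36.1 to 58.2) against 25.6% (21 to 30.7) of naive CD301bint cells. *Il15ra* was in 94.4% (91.2 to 96.7) of naive cDC1s with *Il15* and in 71.1% (55.7 to 83.6) of those without, at median depths of 15486 and 12583 UMIs, but in 96.3% (91.6 to 98.8) and 100% (83.2 to 100) of papain ones, of which 20 lacked *Il15*. By contrast, *Il1b* was in 53.7% (44.4 to 62.8) of naive CD301bhi cells with *Il12b* and in 57.3% (51.9 to 62.5) of those without, and in 41.7% (35.2 to 48.5) against 51.5% (49.2 to 53.9) of papain ones. *Il12a* was in at most 1.18% of cells with *Il12b* in any class.

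Within cDC2s, the authors' mRNA clusters, which were built from these data, parted the genes differently. In naive cDC2s *Il12b* was highest in cluster 1.2 (214 CPM) and 1.6 (167 CPM) and lowest in 1.3 (41.7 CPM), *Il6* was highest in 1.4 (39.8 CPM) and 1.5 (33.1 CPM), and *Il1b* in 1.5 (2111 CPM) against 149 to 577 CPM in the others. In papain cDC2s *Il1b* was highest in cluster 2.4 (754 CPM), *Il12b* in 2.3 (83.9 CPM) and *Il6* in 2.9 (49.6 CPM) and 2.8 (21.1 CPM). Papain cluster 2.6, with 430 cells, held *Il12b* at 0.196 CPM, *Il6* at 0.392 CPM and *Il1b* at 31.7 CPM, and had 711 CPM of *Ccr7* where the other papain clusters had 2846 to 4332 CPM. *Il15* (168 CPM) and *Il15ra* (214 CPM) in this cluster stood beside 97.7 to 210 CPM and 173 to 200 CPM in the other papain clusters. *Tnf* was 3.48 CPM in cluster 2.7 and 44.1 CPM in cluster 2.3.

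**Figure D5:**
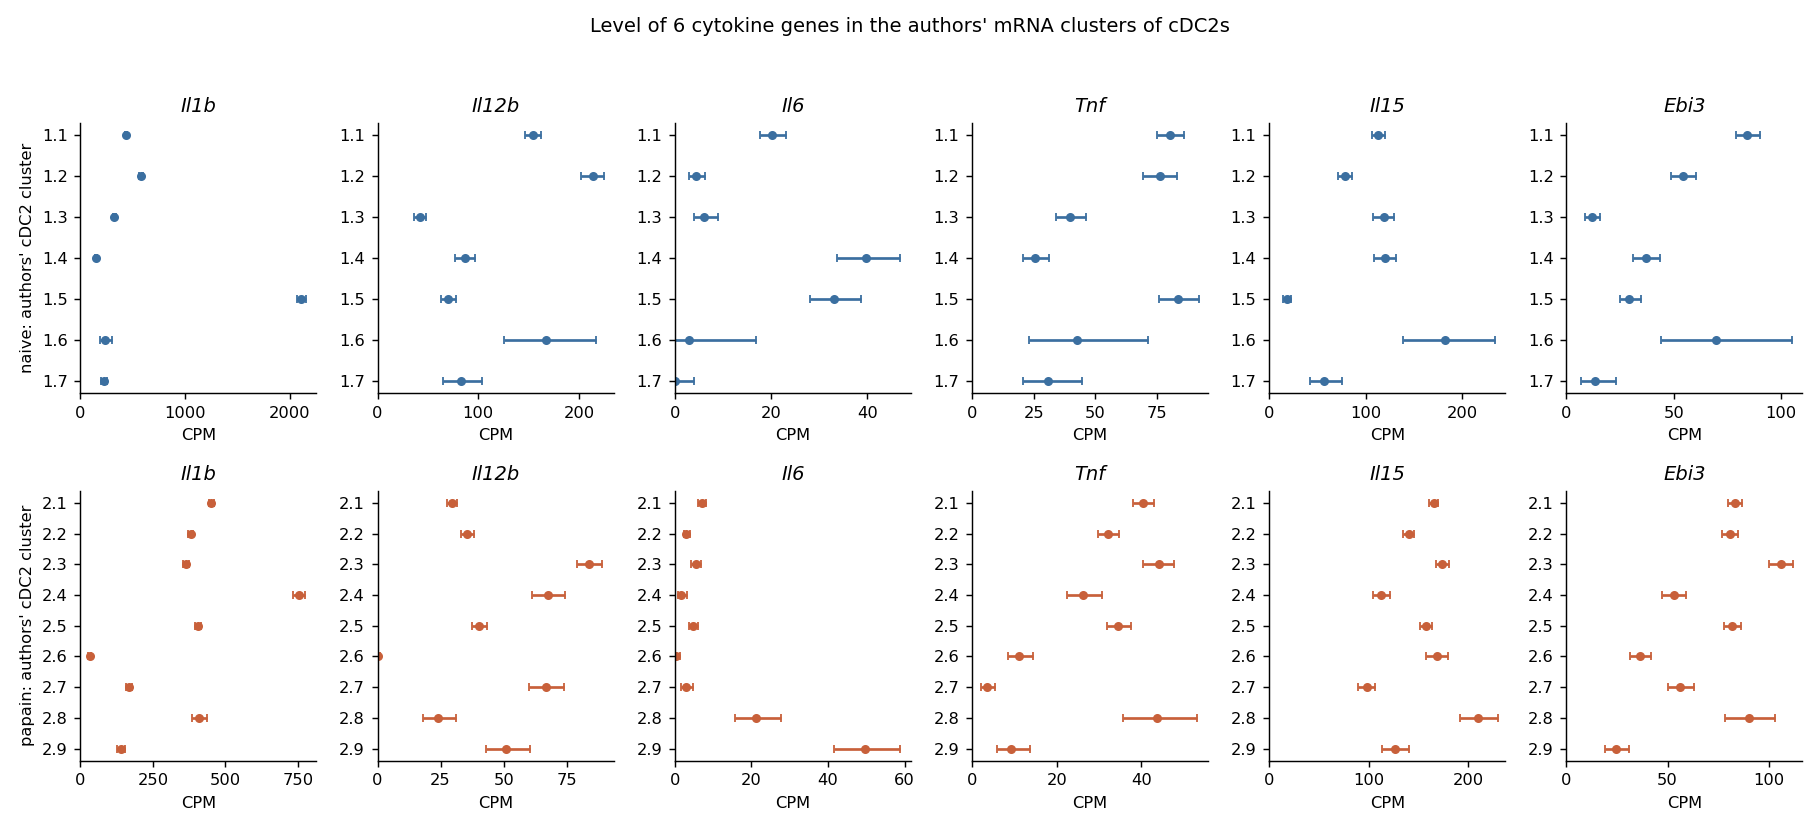
Level in CPM (horizontal axes, from 0, scaled per gene and library) of 6 genes in the authors' cDC2 mRNA clusters of the naive (top) and papain (bottom) library, with 95% counting intervals. Cluster 1.5 stands apart for *Il1b* (2111 CPM) and *Il15* (18.2 CPM), and cluster 2.6 has almost no *Il12b* with 168 CPM of *Il15*.

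The 1% of naive cells with most *Il1b*, 31 cells with at least 100 UMIs each, had 4600 CPM of the monocyte and macrophage markers, beside 419 CPM in the rest. For *Il6* the values were 3246 and 444 CPM and for *Tnf* 1709 and 465 CPM, and for *Il12b* 693 and 481 CPM. In papain cells, the 74 cells with most *Il1b* had 698 and the rest 34.3 CPM, whereas those with most *Il6* (23.5 CPM) and *Tnf* (24.2 CPM) were below the rest. The levels of *Il12b*, *Il6* and *Tnf* without cluster 1.5 still gave log2 ratios of -2.13, -1.79 and -1.05 in CD301bhi cDC2s, and *Tnf* in CD301bint cDC2s was then at -0.91.

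Over the 10 groups of class and library, the gene most like each member that reached 10 CPM (all but *Il10*) by Pearson's r of log2 CPM, among 8443 genes, was *Mpeg1* for *Il12b* (0.964), *Sirpa* for *Il1b* (0.980), *Tapbpl* for *Il15* (0.980), *Slc25a38* for *Il15ra* (0.971), *Egr1* for *Il18* (0.982), *Adgre5* for *Il6* (0.951), *Padi2* for *Tnf* (0.973), *Ssr3* for *Ebi3* (0.961) and *Hp1bp3* for *Il27* (0.974). *Il15* and *Il15ra* had an r of 0.86 with each other, and *Il1b* and *Il27* one of -0.95. The r values of *Il27* rest in part on cDC2 groups in which it was not apart from background. The 10 groups share 2 libraries and are not independent, and these values are descriptions.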

How the data were processed

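The authors processed the reads with Cell Ranger 3.0.1 and Partek (genome build mm10) and deposited, per cell, the log2 of CPM plus 1 for 18049 genes and the count of expressed genes. Every deposited value up to 50 UMIs was a whole multiple of the value of 1 UMI within 0.02 (100%), so UMIs were recovered and summed per antibody class and library with Python 3.11.15, NumPy 2.4.6, pandas 2.3.3 and SciPy 1.17.1. The libraries held 3471 naive and 7596 papain cells, of which 429 and 290 without antibody data had no class. Ratios are of summed CPM, with exact conditional binomial intervals, and a ratio counts as higher or lower at 2-fold where the higher side reaches 10 CPM. A count of 0 is taken to allow 3 counts. All 10 genes are named, and genes of the 4 pathway lists where they passed 2-fold between the libraries in a class; *Il12a*, *Il23a*, *Casp1*, *Nfkbiz*, *Irf8* and the heat shock and immediate early genes were added after their values were seen. The members and lists were chosen with earlier results of these data known. Thinning and intervals were checked on simulated data. The interval check drew Poisson counts, so it does not bear on the spread between cells. The deposited antibody values were not used.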

Additional observations from a re-analysis of the deposited data

Results flagged for a closer look

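*Il1b* and *Ebi3* differed between classes in the direction of the papain to naive ratio, with intervals on opposite sides of 0. The difference itself was not tested. For *Il1b* the log2 ratio was -0.80 in CD301bhi, -0.85 in CD301bint and -0.92 in CD301blo cDC2s, against 0.44 in cDC1s and 0.43 in LCs. Without naive cluster 1.5, the CD301blo value was 0.43 and the CD301bint value 0.06. For *Ebi3* it was 0.60, 0.51 and 0.53 in the cDC2 classes and 0.57 in LCs, against -0.78 in cDC1s, of which the papain library held 235.

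Papain cells with neither an antibody class nor T cell transcripts, 49 in number and used in no comparison, had *Il1b* at 624 CPM (571 to 680), above the highest class (CD301bhi cDC2s, 454 CPM). Of these cells 20 held the gene, and 1 held 126 of the 513 UMIs. Their summed monocyte and macrophage markers were at 557 CPM, beside 11.4 to 104 CPM in the papain classes, their B cell markers at 259 CPM, beside 4.59 to 31.6 CPM, and their NK cell markers at 52.3 CPM, beside 0 to 1.77 CPM. The part of such cells in the value was not tested.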

How the results depend on the processing

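No paired analysis was possible because each condition is 1 library without a replicate number. Leaving out naive cluster 1.5 was chosen after seeing the data. Of the 9 ratios of papain to naive that were 2-fold lower and the 0 that were higher, 4 lower ones were left with 10 CPM added, and 14 lower and 3 higher ones were found with no minimum level. Leaving out the deepest 5% of cells gave 1 higher ratio, *Il1b* in cDC1s (1.13). With all classes summed 2 of 8 genes were lower, and with the 5 class levels weighted equally 0 of 8 were lower and 0 higher. The mean over cells left 6 lower ones, leaving out the 1 cell with most UMIs left 7, and leaving out cluster 1.5 left 8 (without *Tnf* in CD301bint cDC2s). Between naive classes, cluster 1.5 left out gave 7 lower ones, without *Il1b* in LCs. Of the 5 higher and 8 lower ratios between naive classes, 3 and 5 were left with at least 50 CPM, 2 higher ones with 10 CPM added, and 13 lower ones were found with no minimum. Of the 3 higher and 3 lower ratios between papain classes, 1 higher one was left with at least 50 CPM, and 6 lower ones were found against the mean of the other 4 class levels. No called ratio changed sign under any alternative that was run. The filter on genes and mitochondrial UMIs left all 100 levels within their counting intervals. The highest class of a gene differed under an alternative for *Il10* in both libraries and for *Il18* in naive cells. Shares of cells after thinning were outside the counting interval of the share with all UMIs in 70 of 100 groups.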

Other observations

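In cells without antibody data and without T cell transcripts, the 192 naive ones had a median of 27044 UMIs, and *Il12b* was at 179 CPM (167 to 191) and *Il27* at 5.22 CPM (3.41 to 7.65) in them.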
